A study of Mus musculus with 4 samples.

Results

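Within the library from mice given the wild-type SIK3 vector, excitatory nuclei that carried vector transcripts were compared with excitatory nuclei that carried none. Nuclei were taken as excitatory when they had at least 500 detected genes, under 5% of UMIs (unique molecular identifiers, a count of RNA molecules) from mitochondrially encoded genes, and at least 2 UMIs of Slc17a7 and Sv2b together, outnumbering those of Gad1 and Gad2. Slc17a7 encodes the vesicular glutamate transporter VGLUT1, Sv2b a synaptic vesicle protein, and Gad1 and Gad2 the enzymes that make GABA. Of 6978 barcodes in that library, 6729 passed the quality filters and 3227 were excitatory. Of these, 124 nuclei with at least 3 UMIs of the vector feature WPRE_pA were called vector-rich and 2537 with 0 were called vector-free, 2661 nuclei in all against 28619 barcodes in the whole series. The other 566 excitatory nuclei had 1 or 2 vector UMIs and entered neither group. Vector UMIs, the excitatory and inhibitory marker genes, detected genes and mitochondrial share chose the groups, so their values are given below as descriptions.

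The mice were C57BL/6N, and a local administration delivered AAV8-hSyn-FLAG-SIK3(WT), an adeno-associated virus in which the human synapsin promoter, active in neurons, drives SIK3 with a FLAG tag. The primary motor area was dissected from frozen brain sections, nuclei were isolated, and their RNA was counted with a droplet-based 10x Chromium kit. The series holds 3 more libraries from the same strain and area: mice given AAV8-hSyn-FLAG-SIK3(Ex13del), in which exon 13 is absent, mice left to sleep ad lib, and mice deprived of sleep by gentle handling. Each group is 1 library, the number and age of the animals behind it are not given in the sources used here, and no library of an empty or unrelated vector was analysed here. Both groups of nuclei came from the same injected tissue, so the vector-free nuclei are injected-tissue nuclei with no vector UMI, not nuclei shown to be uninfected. With 1 library, nothing was tested between groups. Differences are given as ratios with exact 95% intervals, which cover counting error only and not the spread between nuclei or animals.

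SIK3 is a salt-inducible kinase of the AMPK-related family. The kinase LKB1 (Stk11) activates it, protein kinase A phosphorylates it on sites that bind 14-3-3 proteins and restrain it, and active salt-inducible kinases phosphorylate class IIa histone deacetylases and CREB-regulated transcription coactivators (CRTCs), which are then held in the cytoplasm. A deletion of exon 13, which encodes a protein kinase A site, underlies the Sleepy mouse, in which sleep need is high. WPRE is a viral element placed behind a transgene to raise its expression, and a 3′ method reads transcripts near their polyadenylated end.

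Vector-rich nuclei held 1490432 UMIs and vector-free nuclei 25150318. The median nucleus had 9940 UMIs against 8838, with 0.436% against 0.341% mitochondrial UMIs. Scrublet scores placed 15.3% of vector-rich and 6.66% of vector-free nuclei among the likely doublets, 19 and 169 nuclei. The vector-rich group therefore differed from the vector-free group in depth, mitochondrial share and doublet score before any gene was compared, and the part of these differences in the results below was not tested. The library shared 14, 16 and 11 barcodes with the ad lib, sleep deprivation and exon 13 deleted libraries, and 0 vector-rich barcodes occurred in another library.

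The label of excitatory neurons held for most nuclei by their markers, but not for all. Clustering the 3227 nuclei gave 18 clusters. Of these, 9 were taken as layer clusters, and 8 of the 9 were named from listed layer markers. Among the leading genes were Cux2 and Rasgrf2 in a layer 2/3 intratelencephalic-like cluster, Foxp2 and Syt6 in a layer 6 corticothalamic-like cluster, Il1rapl2 and Deptor in a layer 5 intratelencephalic-like cluster, and Tshz2 and Vwc2l in a near-projecting-like cluster. One of the pair of layer 4/5-like clusters rests on 3 of 7 markers and was led by Gm15398 and Zfp804b, and the ninth layer cluster, led by Rxfp1 and Galnt14, stayed unnamed with 3 of 8 markers of its best match. These 9 layer clusters held 77 vector-rich and 1903 vector-free nuclei. Another 8 clusters, with 490 nuclei and 19 vector-rich ones, were led by genes of astrocytes, endothelial cells, microglia, oligodendrocytes and their precursors, striatal neurons or interneurons. In an unnamed cluster of these, led by Neat1 and Mog, 80% of nuclei had high doublet scores, and 8 of its 55 nuclei were vector-rich. The remaining cluster was shallow, at a median of 2346 UMIs, was led by mt-Nd4, mt-Atp6, Calm3 and Nefm, and stayed unnamed. It held 28 of the 124 vector-rich nuclei and 252 of the 2537 vector-free nuclei.

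Vector-rich nuclei were unevenly spread over the clusters. They made up 8.38% of the shallow cluster (exact Clopper-Pearson interval 5.64 to 11.9), 5.43% of an unnamed layer cluster led by Rxfp1 and Galnt14, 4.83% of the layer 5 intratelencephalic-like cluster, 4.26% of the layer 5 extratelencephalic-like cluster, 3.25% of the layer 2/3 cluster and 2.97% of the layer 6 corticothalamic-like cluster. The lowest share in a layer cluster with any was 0.704% (0.0854 to 2.52), 2 of 284 nuclei in a layer 4/5 cluster led by Rorb, Unc5d and Brinp3. The layer 6b-like cluster had 0 of 39. Because of this spread, some results are also given for the layer clusters alone, and some for a matched comparison. The matched comparison used 372 vector-free nuclei, the 3 nearest in total UMIs to each vector-rich nucleus within its own cluster. Values given without either cover all excitatory nuclei of the 2 groups only. The choice of the layer clusters was made after the data were seen.

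Vector UMIs were found in both injected libraries and in none of the 4138 excitatory nuclei of the ad lib library or the 2640 of the sleep deprivation library, which allows shares of up to 0.0725% and 0.114% by the limit of 3 counts used here for a count of 0. At least 1 vector UMI was seen in 21.4% of excitatory nuclei (20 to 22.8), in 20.1% of inhibitory nuclei, in 13.3% of nuclei with astrocyte markers and no neuron marker, and in 20.2% of the corresponding oligodendrocyte nuclei. The median depths of these 4 classes were 8954, 7283, 2933 and 2110 UMIs. A synapsin promoter has little known activity in glia, and what share of single vector UMIs came from free RNA was not tested. At 3 or more UMIs the shares in the wild-type library were 3.84% (3.21 to 4.56) of excitatory and 3.92% (2.69 to 5.48) of inhibitory nuclei. There 0 of 196 astrocyte and 0 of 129 oligodendrocyte nuclei, which are much shallower, had as many. In the exon 13 deleted library 2 of 209 astrocyte and 1 of 165 oligodendrocyte nuclei did. The highest count in an excitatory nucleus of the wild-type library was 115. Its 33 excitatory nuclei with 10 or more held 64.7% of the vector UMIs of the vector-rich group.

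Sik3, the gene the vector carries, was higher in vector-rich nuclei and highest where vector UMIs were most numerous. Sik3 (ENSMUSG00000034135) lies on the plus strand of chromosome 9 at 46012820 to 46224194 of mm10. Its level was 418 CPM (386 to 452; the gene's UMIs over all UMIs of the group, times 1000000) in vector-rich nuclei, from 623 UMIs, and 199 CPM (194 to 205) in vector-free nuclei. That is a ratio of 2.10 (1.93 to 2.28), with 2.17 (1.95 to 2.41) against the matched nuclei and 2.06 (1.84 to 2.29) in the layer clusters. Per nucleus, the median was 3.39 Sik3 UMIs per 10000 (quartiles 1.78 and 5.71) against 1.48 (0 and 2.83), so the quartile ranges overlapped. Sik3 was seen in 86.3% of vector-rich and 71.3% of vector-free nuclei, and in 57.4% and 41.3% after each nucleus was thinned to 3000 UMIs, which left out 9 vector-rich and 281 vector-free nuclei. The files do not separate Sik3 reads of the vector from those of the mouse gene, so the 2 sources cannot be told apart.

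Sik3 differed by degrees across the threshold that separates the groups. Nuclei with 1 vector UMI had 211 CPM of Sik3 and those with 2, just outside the threshold, had 226 (198 to 257). Nuclei with exactly 3, just inside, had 312 (248 to 388, 27 nuclei), and the intervals of these neighbours overlapped. Sik3 was 294 (248 to 346) at 3 to 4 vector UMIs, 349 (300 to 404) at 5 to 9 vector UMIs and 614 (547 to 687) at 10 or more. The widest gap between neighbouring groups was that from 5 to 9 to 10 or more, whose intervals did not overlap. For reference, excitatory nuclei of the ad lib library had 167 CPM and those of the sleep deprivation library 195 CPM, values from separate libraries.

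**Figure D1:**
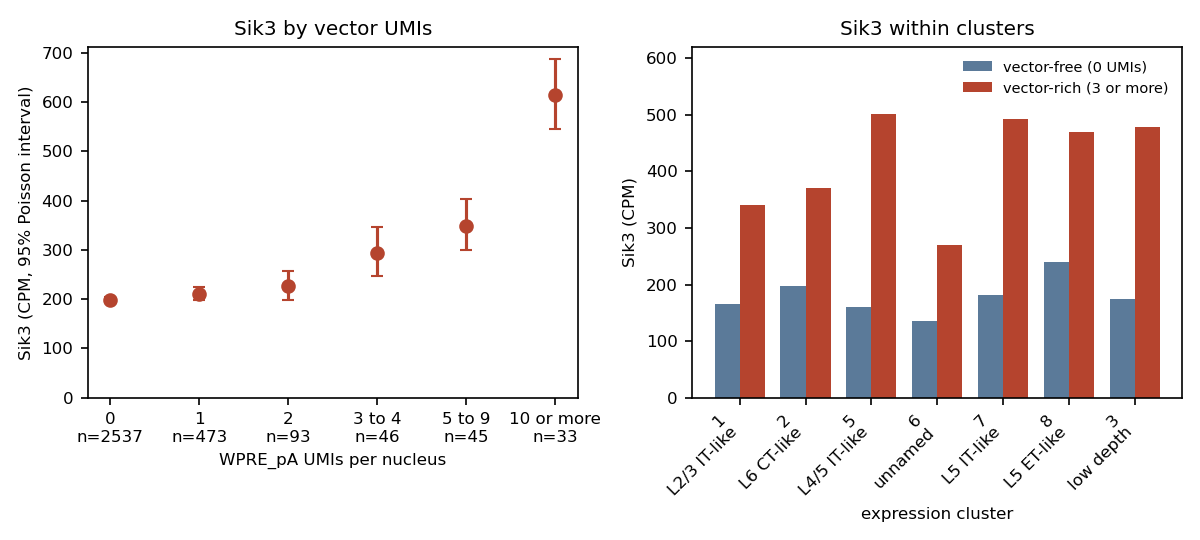
Left: summed Sik3 level in CPM (vertical axis, starting at 0) of excitatory nuclei grouped by WPRE_pA UMIs (horizontal axis), with exact Poisson 95% intervals and the number of nuclei. Right: Sik3 CPM of vector-free (blue) and vector-rich (red) nuclei in the 7 clusters with at least 5 vector-rich nuclei. Sik3 goes from 199 CPM at 0 vector UMIs to 614 at 10 or more, and the red bar is taller in all 7 clusters.

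Sik3 was higher in vector-rich nuclei of each of the 6 layer clusters that had at least 5 of them. The ratio ranged from 1.88 (1.44 to 2.42) in the layer 6 corticothalamic-like cluster, where 370 CPM stood against 197, to 3.11 (2.27 to 4.19) in a layer 4/5 intratelencephalic-like cluster, where 502 CPM stood against 161. In the layer 2/3 cluster 340 CPM stood against 166, in the layer 5 intratelencephalic-like cluster 493 against 181, and in the layer 5 extratelencephalic-like cluster 470 against 240. The shallow cluster had 479 against 175. All 7 counting intervals lay above 1.

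Across genes, most differences were small. Among 3720 genes whose mean over both groups reached 50 CPM, and leaving out those the choice of nuclei used, 102 were at least 1.5-fold higher in vector-rich nuclei (2.74% of those compared) and 54 at least 1.5-fold lower (1.45%). A called gene is one past that fold after 5 CPM is added to each value, and the same 5 CPM stands in every log2 ratio below. Of all genes, 60.3% were higher by any amount, at a median log2 ratio of 0.07. The split depended on scaling: with TMM factors, which move the ratios down by 0.13 on the log2 scale, 39 were higher and 137 lower, and the median of all genes was -0.06. Directions with a size under 0.13 are therefore read relative to that shift.

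Which genes were called depended on the clusters. Of the 102 higher genes, 36 were cytosolic ribosomal protein genes, a class of which 69 were compared. In the layer clusters alone, 75 genes were higher (2.09% of 3585) and 73 lower (2.04%), and 1 of the 75 was a ribosomal protein gene. In the matched comparison, 60 were higher (1.61% of 3734) and 47 lower (1.26%). The shares higher by any amount were 59.1% in the layer clusters and 60.6% matched. Only 26 genes were called higher, and 26 lower, in all of these 3 comparisons, which share vector-rich nuclei. With TMM factors 14 of the former and 26 of the latter were still called. The 26 higher genes included Nnat, Epha10, Usp29, Gas5, Ccnd2, Sik3, Nap1l5, Ankrd45, Ptma, Pik3r3, Dner, Dcaf7, Ptprn, Fam214a, Klhl1, Ppp1r12c, Cfap36, Rims4, Cabp1, Tm6sf1, Sugp2, Ccdc136, Dip2a, Chd4 and A230057D06Rik. The 26 lower genes included Brinp3, Bach2, Mcc, Gm21798, Gm15680, Osbpl3, Tenm2, Pcdh17, Nell1, A330015K06Rik, Oprm1, Gm48321, Kcnk2, Cdh8, Dcx, Gm32509, Tafa1, Kcnh5, Etv5, Spon1, Col19a1, Zfp804b, Ptprr, Cdh10 and Rph3a.

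**Figure D2:**
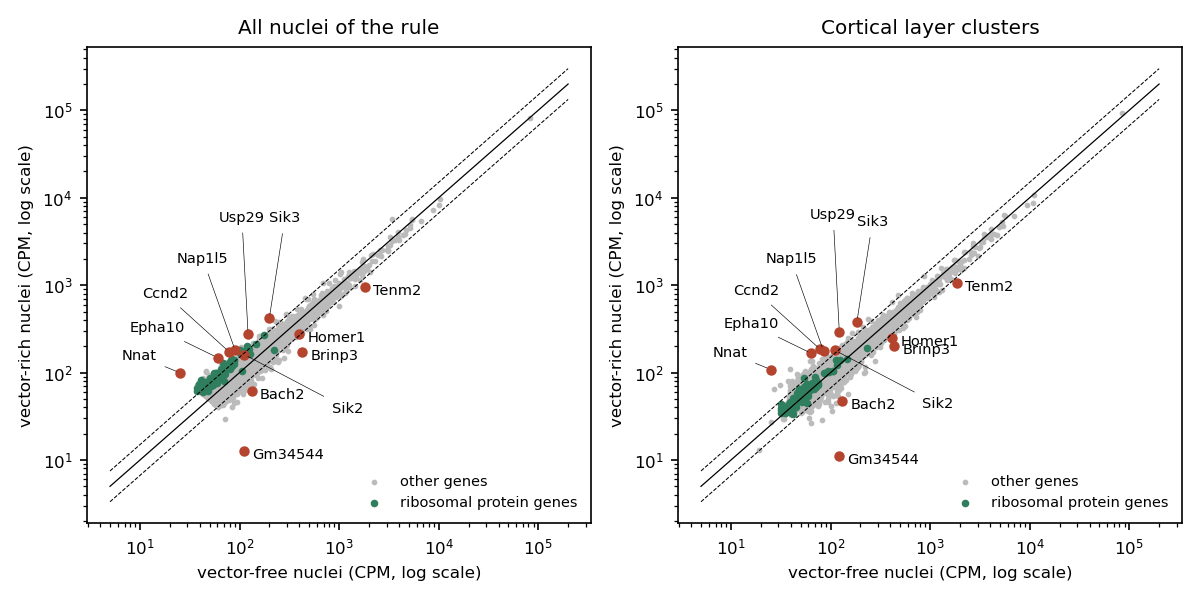
Each point is a gene, with its CPM in vector-free nuclei on the horizontal axis and in vector-rich nuclei on the vertical axis, both logarithmic. The solid line marks equal levels and the dashed lines 1.5-fold differences without the added 5 CPM. Ribosomal protein genes (green) sit above the diagonal among all nuclei (left) and around it in the layer clusters (right), while Sik3, Nnat, Epha10 and Usp29 stay above and Tenm2, Bach2 and Gm34544 below in both.

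Nnat had the highest ratio. It encodes neuronatin, a small membrane protein of the endoplasmic reticulum that is expressed from the paternal allele, and lies on chromosome 2 at 157560078 to 157562522 (ENSMUSG00000067786). Its level was 99.3 CPM (83.9 to 117) against 25.4 (23.4 to 27.4), a ratio of 3.91 (3.25 to 4.69), with 4.24 matched and 4.32 in the layer clusters. It was seen in 40.3% of vector-rich and 20.6% of vector-free nuclei. Across vector UMIs its level was 24.9 CPM at 1, 30.9 at 2, 36.7 at 3 to 4, 70.6 at 5 to 9 and 192 at 10 or more. The layer 5 intratelencephalic-like cluster had the widest gap, 319 CPM from 42 UMIs against 20.1, and the layer 6 corticothalamic-like cluster nearly none, 28.5 against 26.2 (ratio 1.09, 0.346 to 2.62).

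Epha10 encodes a member of the Eph receptor family that lacks kinase activity, and lies on chromosome 4 at 124880899 to 124917800. It stood at 148 CPM against 60.2, a ratio of 2.46 (2.13 to 2.84), and at 2.59 (2.19 to 3.05) in the layer clusters. It was 51.5 CPM at 1 vector UMI, 83.1 at 2, 65.3 at 3 to 4, 149 at 5 to 9 and 230 at 10 or more. Epha10 thus stood without order below 5 vector UMIs and far above the vector-free level from 5. It was higher in all 6 layer clusters, from 1.55-fold (1.08 to 2.16) in layer 2/3 to 6.32-fold (3.75 to 10.2) in a layer 4/5 cluster.

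Usp29 and Nap1l5, like Nnat, are expressed from the paternal allele. Usp29, a ubiquitin protease gene on chromosome 7 at 6730578 to 6967219, had 275 CPM against 122 (ratio 2.26, 2.03 to 2.5). A large part came from the layer 5 extratelencephalic-like cluster, where 105 of its 410 vector-rich UMIs lay and 6.82-fold (5.43 to 8.51) separated the groups. Nap1l5, a nucleosome assembly protein family member on chromosome 6 at 58905233 to 58907076, had 179 CPM against 90.5 (1.98, 1.74 to 2.25). Ccnd2, the gene of cyclin D2 on chromosome 6 at 127125162 to 127152193, had 172 against 79.2 (2.17, 1.90 to 2.47). All of these kept ratios of at least 1.93 in the matched and of at least 2.07 in the layer comparison.

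Gas5, a noncoding RNA that hosts small nucleolar RNAs, had 103 CPM against 45.6 (2.25, 1.89 to 2.66), and Eef2, the translation elongation factor 2 gene, had 104 against 45.7 (2.27, 1.91 to 2.69). In the layer clusters the ratios were lower, 1.67 (1.28 to 2.13) for Gas5 and 1.37 (1.01 to 1.81) for Eef2. Rps19, Rpl24 and Cox7a2l, genes of 2 ribosomal proteins and of a respiratory chain assembly factor, had ratios of 2.02, 1.91 and 2.02 among all nuclei and of 1.36, 1.28 and 1.22 in the layer clusters, whose intervals all reached 1. Ptma, prothymosin alpha, was at 1.89 among all nuclei and at 1.62 (1.35 to 1.92) in the layer clusters.

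The promoters of the 12 genes with the highest ratios were searched for the full cAMP response element TGACGTCA, the site that CREB binds, since CRTCs act through CREB. The element reads the same on both strands. RefSeq promoters (GRCm38.p6, 250 bases before to 50 after the start) were matched for 11 of the 12, and 3 held it: Gas5, Usp29 and Eef2. Of the 12 lowest genes, 9 had a matched promoter and 0 of these held it. Of all 27025 genes with a promoter, whatever their level here, 549 held it, or 2.03%. The 12 highest and 12 lowest genes were instead chosen among genes at 50 CPM or more, and no share was computed for all genes at that level. The difference between these shares was not tested, and at 2.03% a count of 0 among 9 does not set the lowest genes apart. The 3 windows below run from 100 bases before to 20 after the start, with the element in capitals. It spans 46 to 39 bases before the start in Gas5 (chr1:161035066-161035185, plus strand), bases 8 to 15 after it in Usp29 (chr7:6730483-6730602, plus strand) and bases 3 to 10 in Eef2 (chr10:81176531-81176650, plus strand). A match describes the letters only.
Gas5: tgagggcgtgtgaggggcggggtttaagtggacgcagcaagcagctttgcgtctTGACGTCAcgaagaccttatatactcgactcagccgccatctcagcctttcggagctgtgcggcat
Usp29: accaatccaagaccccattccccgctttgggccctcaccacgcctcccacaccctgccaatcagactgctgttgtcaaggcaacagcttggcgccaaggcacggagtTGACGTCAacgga
Eef2: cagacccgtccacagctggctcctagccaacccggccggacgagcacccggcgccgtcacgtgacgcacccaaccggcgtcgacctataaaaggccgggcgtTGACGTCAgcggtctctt

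Genes lower in vector-rich nuclei included adhesion molecules, a transcription factor and long noncoding RNAs. Gm34544, a long intergenic noncoding RNA gene on chromosome 10 at 71527281 to 71678840, had the lowest ratio: 12.7 CPM from 19 UMIs against 111 CPM, or 0.115 (0.0691 to 0.180). It was seen in 12.1% of vector-rich and 15.6% of vector-free nuclei, so fewer UMIs per positive nucleus made up most of the gap. Gm34544 was lower in all 6 layer clusters compared singly, where its vector-free level ranged from 34.6 to 283 CPM. It was not among the 26 genes called lower in all 3 comparisons. Tenm2, a teneurin that joins synaptic membranes through latrophilins, lies on chromosome 11 at 36006656 to 37235964 and rests on the most UMIs of the 12 lowest genes. It had 947 CPM (899 to 998) against 1805, a ratio of 0.525 (0.497 to 0.553), with 0.631 (0.595 to 0.668) matched and 0.570 in the layer clusters. Nuclei with 1 and 2 vector UMIs had 1750 and 1759 CPM, and those with 3 to 4, 5 to 9 and 10 or more had 1020 and then 949 and 873.

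Brinp3, a BMP/retinoic acid-inducible neural gene on chromosome 1 at 146494760 to 146902472, had 172 CPM against 424 (0.406, 0.358 to 0.460). It and Rorb, a nuclear receptor of layer 4 neurons with 148 CPM against 279, are among the leading genes of the layer 4/5 cluster that held 2 vector-rich nuclei. Their ratios were 0.545 and 0.713 against the matched nuclei, nearer to 1 than over all nuclei. Bach2, a transcriptional repressor gene on chromosome 4 at 32238804 to 32586108, had 61.7 CPM against 132 (0.468, 0.376 to 0.575) and 0.361 in the layer clusters. Among the other lowest genes were Osbpl3, an oxysterol-binding protein gene, at 0.518, Pcdh17, a protocadherin gene, at 0.530, Nell1, a secreted glycoprotein gene, at 0.532 and Mcc at 0.485. The loci Gm21798, Gm15680 and A330015K06Rik, which have no gene name, lay between 0.509 and 0.545.

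**Figure D3:**
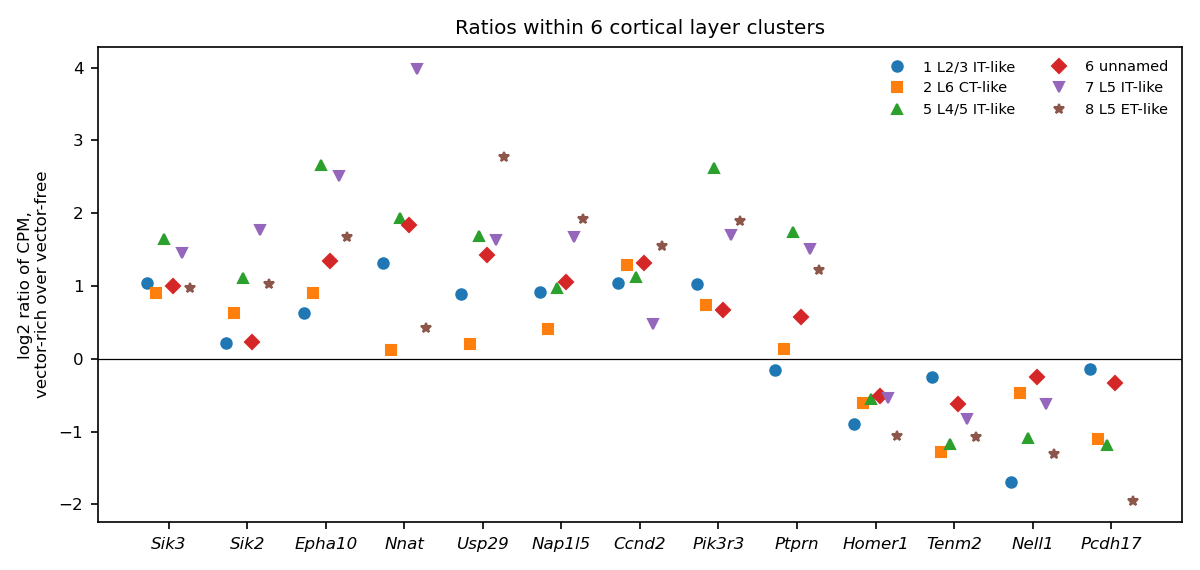
Log2 ratio of CPM, vector-rich over vector-free (vertical axis), of 13 genes (horizontal axis) in the 6 layer clusters with at least 5 vector-rich nuclei, 1 symbol per cluster; clusters with no UMI of a gene in vector-rich nuclei are not drawn. Sik3 and Epha10 lie above 0 and Homer1 and Tenm2 below 0 in all 6, while Nnat spreads from a ratio of 1.09 to 15.9.

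The direction was shared by all 6 layer clusters for 190 of the 3720 genes upward (5.11%) and for 165 downward (4.44%). Among those upward were Sik3, Sik2, Nnat, Epha10, Usp29, Nap1l5, Ccnd2, Ptma and Pik3r3, a regulatory subunit gene of phosphoinositide 3-kinase with ratios of 1.59 to 6.13. Among those downward were Tenm2 (0.410 to 0.843), Homer1 (0.477 to 0.699), Gm34544, Nell1, Cdh8, Col19a1 and Pcdh17. The 6 clusters held 7 to 19 vector-rich nuclei each.

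Of the SIK pathway, Sik3 had the highest ratio among members at 50 CPM or more. The list of salt-inducible kinases, LKB1 complex members, class IIa histone deacetylases, CRTCs, CREB family members, 14-3-3 proteins and MEF2 factors had 20 of 30 members at 50 CPM or more. Of these, 13 were higher (60.3% of all genes were), 3 were called higher (2.74% of all genes were) and 0 lower, and the median log2 ratio was 0.14, against 0.07 over all genes. The median was 0.13 matched, 0.10 in the layer clusters and 0.01 with TMM factors. Against the matched nuclei, 11 of 20 were higher and 1 was called higher, beside 60.6% and 1.61% of all genes. The members called over all nuclei were Sik3 and the 14-3-3 genes Ywhaz (262 CPM against 167, 1.57) and Ywhag (241 against 158, 1.53). In the layer clusters Ywhaz and Ywhag stood at 1.32 and 1.37.

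Sik2, a closely related kinase, had 161 CPM against 111, a ratio of 1.45 (1.26 to 1.65), and 1.64 (1.40 to 1.91) in the layer clusters. Sik1, which neuronal activity and cAMP induce, had 12.7 CPM against 4.53, 2.81-fold (1.63 to 4.60) on 19 vector-rich UMIs and below the level at which genes were called. Stk11, the LKB1 gene, was low in both groups, 22.8 CPM against 14.7. Its cofactor genes Strada and Cab39 were at 0.939 and 1.17, both with intervals that reached 1. The vector-rich nuclei thus had higher levels of all 3 salt-inducible kinase genes, where Sik3 includes any reads of the vector. Stk11 was also higher in them, at a low level, while its cofactor genes Strada and Cab39 were near 1-fold.

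Among the targets, the class IIa deacetylase genes did not share a direction. Hdac9 had 302 CPM against 424 (0.713, 0.647 to 0.783), and was lower in all 6 layer clusters. Hdac4 had 107 against 116 (0.923, 0.782 to 1.08), Hdac7 86.6 against 85.9 and Hdac5 39.6 against 32.8 (1.21, 0.912 to 1.57). Mef2c, a transcription factor that these deacetylases repress, had 843 against 988 (0.853, 0.806 to 0.903), and Mef2d had 99.3 against 71.6 (1.39, 1.16 to 1.64). Crtc1, the main neuronal CRTC gene, had 69.8 against 55.9 (1.25, 1.01 to 1.53), Crtc3 37.6 against 49.0, and Creb1 78.5 against 80.8. Crem, which encodes the cAMP-inducible repressor ICER among its products, had 42.9 against 19.1 (2.25, 1.70 to 2.92) and 1.57 (1.04 to 2.29) in the layer clusters.

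Of the immediate early genes, those of the JUN family and Btg2 were higher, and Arc, Fos, Nr4a1 and Npas4 did not share a direction. Only 3 of the 22 listed rapid genes reached 50 CPM, of which 2 were higher (60.3% of all genes were) and 1 was called higher (2.74% of all genes were). At a lower floor of 20 CPM, 7 of 8 were higher, where 62.9% of all genes at that floor were. There Jund, Junb and Btg2 were called higher and 0 lower, beside 3.18% and 1.90% of all genes. Against the matched nuclei, 5 of 8 were higher at that floor, where 4520 of 7214 genes were. Jund had 93.3 CPM against 48.9 (1.91, 1.59 to 2.28), Junb 63.7 against 34.2 (1.87, 1.49 to 2.31), Jun 26.2 against 9.98 (2.62, 1.82 to 3.68) and Btg2 30.2 against 11.6 (2.60, 1.86 to 3.57). Their ratios in the layer clusters were 1.49, 1.85, 2.69 and 2.54. Egr1 had 63.1 against 46.0, a ratio of 1.37, and 0.858 (0.590 to 1.21) in the layer clusters. Arc had 30.2 against 27.5, Fos 8.05 against 5.53 with 12 UMIs, Nr4a1 49.0 against 62.7 (0.782, 0.609 to 0.989) and Npas4 6.04 against 11.2 with 9 UMIs.

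Of the delayed activity genes, 4 of 10 were higher (60.3% of all genes were) and 0 were called. The median log2 ratio was -0.06, and -0.18 with TMM factors. In the layer clusters 5 of 9 were higher (59.1% of all genes were), at a median of 0.09. There 0 were called higher and 2 lower, beside 2.09% and 2.04% of all genes. Homer1, whose short form displaces scaffold proteins at synapses and which lies on chromosome 13 at 93299635 to 93405129, had 276 CPM against 400 (0.689, 0.623 to 0.760) and 0.594 (0.521 to 0.675) in the layer clusters. In the shallow cluster it was 386 against 413. Nrn1, neuritin, had 95.3 against 129 (0.737, 0.619 to 0.872). Bdnf, the brain-derived neurotrophic factor gene, had 28.2 against 23.4 (1.21, 0.860 to 1.65). Of the listed cAMP and CREB targets 5 reached 50 CPM, 1 was higher (60.3% of all genes were), 0 were called, and the median was -0.28. At the floor of 20 CPM the list had the other sign, with 6 of 11 higher (62.9% of all genes were) and a median of 0.09. At that floor 2 were called higher and 0 lower, beside 3.18% and 1.90% of all genes. The phosphodiesterase genes Pde4b (516 against 720) and Pde4d (1438 against 1747) were lower and Pde10a (1135 against 901) higher. Irs2, insulin receptor substrate 2, had 34.2 against 17.7 (1.93, 1.42 to 2.59).

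Of the 25 genes listed as higher after sleep loss, 9 reached 50 CPM, 4 were higher (60.3% of all genes were) and the median was -0.02. At the floor of 20 CPM, 12 of 18 were higher (62.9% of all genes were), at a median of 0.16 beside 0.09 for all genes. Of the cholesterol synthesis genes, Hmgcs1, an early enzyme of the pathway, had 28.2 CPM against 41.4 (0.681, 0.488 to 0.928). At the floor of 20 CPM, 1 of 8 members of that list was higher (62.9% of all genes were), at a median of -0.26. Sc5d, a late enzyme of the pathway, was the higher one, with 38.9 against 28.7 (1.36).

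Genes of inhibitory synapses were mostly lower, by under 1.5-fold. Of 13 GABA-A receptor and gephyrin-complex genes, 3 were higher (60.3% of all genes were) and 0 were called in either direction, at a median of -0.30, with -0.23 matched and -0.26 in the layer clusters. Gabra4 had 105 CPM against 140 (0.753, 0.637 to 0.884), Gabrg3 615 against 783 (0.785, 0.734 to 0.839) and Gabrb2 303 against 374 (0.810, 0.735 to 0.890). The higher ones included Gphn, the gephyrin scaffold gene (489 against 437, 1.12), and Iqsec3 (109 against 85.6, 1.28).

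Of the glutamatergic postsynapse list, 18 of 37 members were higher (60.3% of all genes were) and 0 were called. The median was -0.07, and -0.19 with TMM factors, against 0.07 and -0.06 over all genes. In the layer clusters 17 of 37 were higher (59.1% of all genes were). There 1 was called higher and 2 lower, beside 2.09% and 2.04% of all genes. Shank3, a postsynaptic scaffold gene, had 83.2 CPM against 57.7 (1.44, 1.19 to 1.73), and Dlg4, the gene of PSD-95, 104 against 78.2 (1.33, 1.12 to 1.57). Of the presynaptic list, 22 of 37 were higher (60.3% of all genes were), 3 were called higher (2.74%) and 1 lower (1.45%). Against the matched nuclei 1 was called higher and 1 lower, beside 1.61% and 1.26% of all genes. The median was 0.11, with -0.02 under TMM factors and -0.03 in the layer clusters. Syt7, a calcium sensor of slow release, had 374 against 247 (1.51), Syt4 had 129 against 75.4 (1.71, 1.47 to 1.98), and Rph3a, rabphilin, had 73.1 against 112 (0.651, 0.533 to 0.789). Synpr, synaptoporin, had 74.5 against 39.6 (1.88). It is among the leading genes of the interneuron-like cluster, where 62.3% of nuclei had high doublet scores. Of the 6 layer clusters compared singly, 4 had higher Synpr in vector-rich nuclei.

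Among voltage-gated potassium channel genes 13 of 27 were higher (60.3% of all genes were), 1 was called higher (2.74%) and 2 lower (1.45%), at a median of -0.09. Kcnk2, a leak potassium channel gene, had 60.4 CPM against 105 (0.576, 0.461 to 0.711), Kcnh5 106 against 180 (0.589, 0.5 to 0.691) and Kcnq3, a subunit gene of the M-current, 513 against 735 (0.698, 0.649 to 0.751). Of the axon guidance and adhesion list 10 of 28 were higher, 1 (Epha10) was called higher and 3 lower, beside the same shares of all genes, at a median of -0.12. Cdh8, a type II cadherin gene, had 176 against 304 (0.581, 0.512 to 0.657), and Unc5d, a netrin receptor gene, 351 against 555 (0.632). Cdh20 had 29.5 against 72.2, with 20.5% of its vector-rich UMIs in a single nucleus.

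Genes of protein synthesis and mitochondria were higher over all nuclei, but near or below equality in the layer clusters. Of 35 cytosolic ribosomal protein genes on the list, 35 were higher (60.3% of all genes were) and 17 called higher (2.74% of all genes). The median log2 ratio was 0.58, with 0.44 matched, 0.45 with TMM factors and 0.06 in the layer clusters. There 16 of 26 were higher, near the 59.1% of all genes, and 0 were called. All 10 mitochondrially encoded transcripts were higher over all nuclei, at a median of 0.50. In the layer clusters 0 of 9 were higher, at -0.27, beside the same shares of all genes. mt-Atp6, for example, had 1054 CPM against 694 over all nuclei, and 2704 against 3010 within the shallow cluster itself. The share of nuclei in that cluster (28 of 124 against 252 of 2537) moved with both lists, its part in them was not tested, and without that cluster 54 genes were called higher in place of 102. Many ribosomal protein genes have near-identical pseudogenes, so their counts are uncertain.

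Cytosolic heat shock genes, which encode chaperones, were higher over all nuclei and, by less, in the layer clusters. All 9 at 50 CPM or more were higher (60.3% of all genes were) and 2 were called higher (2.74% of all genes). The median was 0.47, with 0.32 matched, 0.34 with TMM factors and 0.20 in the layer clusters. There 9 of 9 were still higher (59.1% of all genes were) and 0 were called. Hsph1 had 94.6 CPM against 57.7 (1.64, 1.37 to 1.95), Hsp90aa1 had 317 against 200 CPM (1.59), and Hspa8 had 262 against 183 (1.43), and in the layer clusters these were 1.23, 1.08 and 1.09. Nuclear-encoded oxidative phosphorylation genes were higher in 22 of 24 cases over all nuclei (median 0.24), beside 60.3% of all genes. In the layer clusters 8 of 19 were higher (median -0.03), beside 59.1% of all genes. Long nuclear noncoding RNAs had a median of 0.10 (-0.03 with TMM factors), with Malat1 at 82683 CPM against 83152. Of the interferon response list 0 of 25 members reached 50 CPM. Of the AAV entry and trafficking factors 4 of 7 were higher (60.3% of all genes were), at a median of 0.15 (0.03 with TMM factors).

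**Figure D4:**
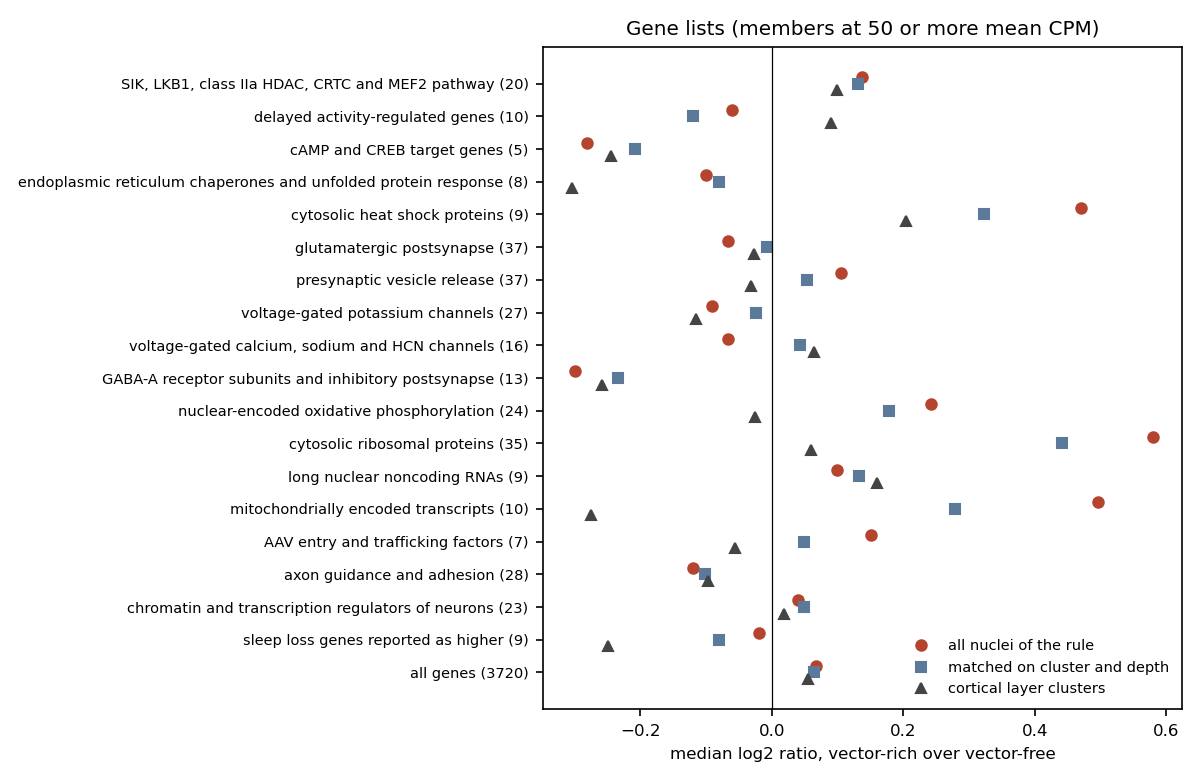
Median log2 ratio, vector-rich over vector-free (horizontal axis), of each gene list (vertical axis, number of members at 50 CPM or more in brackets) over all nuclei (red circles), matched nuclei (blue squares) and layer clusters (black triangles). Ribosomal and mitochondrial lists go from 0.58 and 0.50 over all nuclei to 0.06 and -0.27 in the layer clusters, while GABA-A receptor genes stay between -0.30 and -0.23.

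Markers of other cell types did not move together. Summed over the whole list, inhibitory neuron markers were 436 CPM in vector-rich, 408 in vector-free and 582 in matched nuclei, and 288 against 200 in the layer clusters. There Adarb2 and Erbb4 had ratios of 2.80 and 2.34, and over all nuclei a single nucleus held 49.2% and 48.6% of their vector-rich UMIs. Astrocyte markers summed to 726 against 780, oligodendrocyte markers to 476 against 417, microglial markers to 213 against 209, and endothelial and mural markers to 99.3 against 137, with 1 of these 10 at 0 in vector-rich nuclei. In the layer clusters astrocyte, oligodendrocyte, microglial and vascular sums were all lower in vector-rich nuclei. There the sums of striatal projection neurons (1357 against 947), oligodendrocyte precursors (133 against 116) and leptomeningeal fibroblasts (11.1 against 9.57) were higher. Pde10a, the only 1 of the 10 striatal markers at 50 CPM or more there, made up most of the striatal sum. Over all nuclei, 1 of the 3 striatal markers at 20 CPM or more was higher (62.9% of all genes at that floor were). Excitatory markers that chose no nuclei went in both directions: Neurod6 had 28.9 against 48.2 (0.598), Camk2a 864 against 751 and Neurod2 76.5 against 55.8. The genes that chose the nuclei stood at 305 against 253 for Slc17a7, at 348 against 442 for Sv2b and at 51.0 against 33.9 for Gad1 and Gad2 together.

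The exon 13 deleted library gives the same split in other mice, with 91 vector-rich and 1945 vector-free nuclei of 2600 excitatory ones. It shares no nucleus with the wild-type library, and with 1 library each the difference between the vectors was not tested. The exon 13 deleted library was not clustered, matched or scored for doublets, so its ratios cover all its nuclei of the 2 groups. Nor was the share of a gene's UMIs in a single nucleus computed in it. The part that the mix of nuclei had in its ratios was not tested. More genes were past 1.5-fold there, 505 higher (13% of 3876) and 282 lower (7.28%). Of the genes called in all 3 wild-type comparisons, 8 of 26 were also at least 1.5-fold higher and 11 of 26 at least 1.5-fold lower there. Sik3 was alike, at 448 CPM against 200 (2.24, 2.04 to 2.45), beside 2.10 in the wild-type library. Epha10 had 186 against 55.9 (3.33, 2.87 to 3.84) and Tenm2 786 against 1778 (0.442, 0.414 to 0.472), both in the same direction as with wild-type SIK3.

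Other genes went the other way or stayed near 1 in the exon 13 deleted library. Nnat was at 0.947 (0.683 to 1.28), Usp29 at 0.883 (0.736 to 1.05), Nap1l5 at 0.606 (0.467 to 0.775) and Ccnd2 at 0.715 (0.553 to 0.909), all of them at 1.98 or more in the wild-type library. Sik2 had 68.1 CPM against 99.6 (0.683), beside 1.45. Bach2 had 254 against 128 (1.99, 1.76 to 2.24), beside 0.468, and Brinp3 1.43 (1.33 to 1.55), beside 0.406. Among activity genes picked after their values were seen, Bdnf had a ratio of 8.73 with the exon 13 deleted vector (263 CPM against 30.2) and 1.21 with the wild-type vector, Scg2, secretogranin II, 5.51 and 1.46, and Npas4 4.60 and 0.540. Homer1 was lower in both, 0.683 and 0.689.

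**Figure D5:**
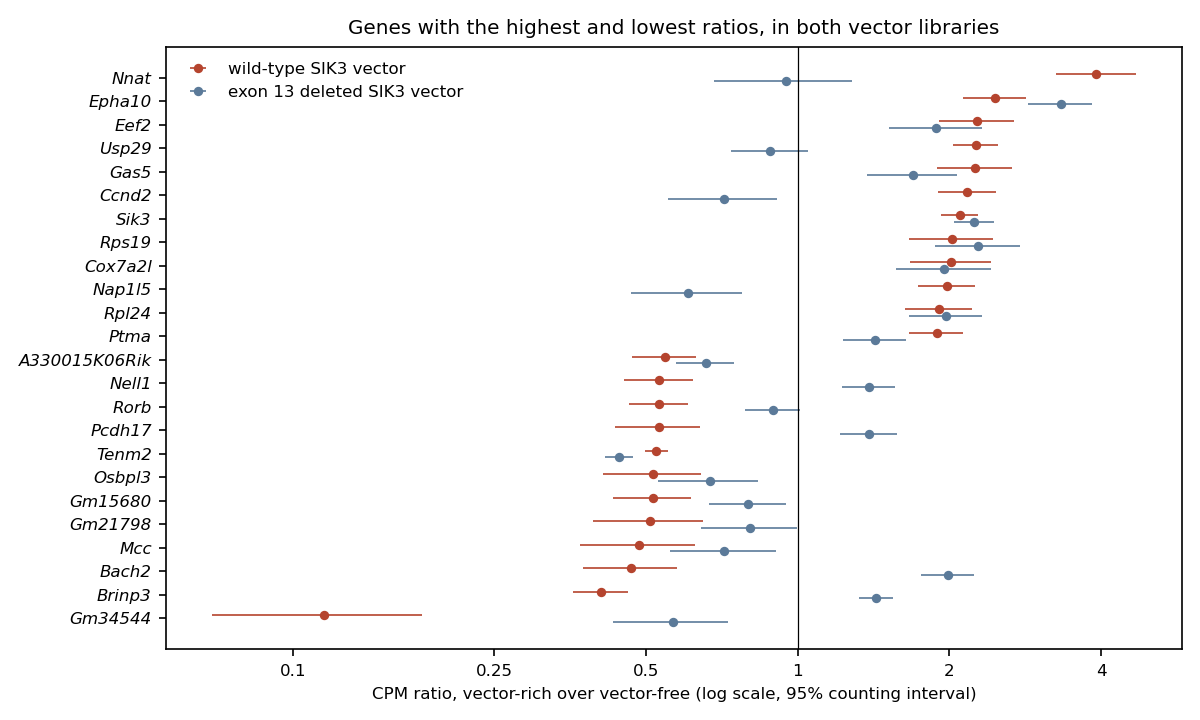
CPM ratio of vector-rich over vector-free nuclei (horizontal axis, logarithmic) with exact 95% counting intervals, for the 12 highest and 12 lowest genes of the wild-type library (vertical axis), in the wild-type (red) and the exon 13 deleted (blue) library. Sik3, Epha10 and Tenm2 lie on the same side of 1 in both, whereas Nap1l5 and Ccnd2 lie above 1 in red and below 1 in blue, and Brinp3 and Bach2 the reverse.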

How the data were processed

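The authors' deposited matrices hold raw UMI counts, 1 number for each gene in each barcode, and no normalized values. The submitters' processing notes name Cell Ranger 6.1.2 and mm10. Filters beyond these, the use of strand and the vector sequence are not given in the sources used here. Genes were placed on mm10 with GENCODE vM21 by identifier (32158 of 32286 features).

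Counts of the nuclei in a group were summed and scaled to CPM, with exact Poisson intervals. Ratios carry exact conditional intervals, and shares exact Clopper-Pearson intervals, all at 95%; the upper limit beside a count of 0 is 3 counts of the total. A call needed 1.5-fold after adding 5 CPM, at a mean of at least 50 CPM. The call and its interval were run on simulated Poisson sums. These hold no spread between nuclei, so they cannot check the calls against it. Nuclei were clustered with scanpy 1.11.5 and leidenalg 0.10.2 (2000 variable genes, 30 principal components, 15 neighbours, resolution 1), without the listed genes and the vector. Scrublet's automatic threshold called 0 of 6729 nuclei, so the highest-scoring 377, the share that 0.8% per 1000 barcodes predicts, counted as doublets and were kept unless stated. TMM factors came from edgeR 4.0.16.

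Named genes were Sik1, Sik2 and Sik3, the 12 highest and 12 lowest ratios with no nucleus over 20% of a gene's vector-rich UMIs, the 6 highest and lowest of the matched comparison, and per list the 3 members of highest level and up to 3 called members. Others were named after their values were seen. The nuclei, gene lists and comparisons were chosen with earlier results of these data known. Reads of antisense or overlapping genes may be shared. Some genes are not reported here.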

Additional observations from a re-analysis of the deposited data

Results flagged for a closer look

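Inhibitory nuclei, which the comparison of excitatory nuclei leaves out, also carried the vector. In the wild-type library 32 of 817 inhibitory nuclei (3.92%, exact Clopper-Pearson interval 2.69 to 5.48) had at least 3 vector UMIs, whereas 0 of 988 inhibitory nuclei of the ad lib library had any, which allows a share of up to 0.304% by the limit of 3 counts used for a count of 0. In the exon 13 deleted library the share was 3.86% (2.60 to 5.50).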

How the results depend on the processing

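No paired analysis was possible because both groups of nuclei come from 1 library and the results come from no test, and no replicate could be left out. The Sik3 ratio of 2.10 stayed above 1.5 under every alternative run. It was 1.92 with TMM factors, 1.62 with 3 to 9 vector UMIs, 1.70 with 2 or more, 2.41 with 5 or more, 3.09 with 10 or more and 2.32 where vector-rich nuclei also needed 3 vector UMIs per 10000. The counts of genes at least 1.5-fold higher and lower (102 and 54, and 60 and 47 matched) moved more. They were 39 and 137 (matched 31 and 101) with TMM factors, 229 and 137 (179 and 132) at a floor of 20 CPM, 36 and 24 (17 and 24) at 100 CPM, and 537 and 422 (608 and 497) with no floor. They were 216 and 133 (142 and 114) at 5 or more vector UMIs, 483 and 226 (424 and 223) at 10 or more, 11 and 6 (13 and 10) at 2 or more, and 275 and 119 (158 and 102) with the added density rule; at 3 to 9 UMIs 51 were higher. Thinning gave 317 and 150 (282 and 150), and the stricter marker rule 180 and 93 (126 and 87). With nuclei weighted equally 96 were lower (153 and 74 matched), without doublet calls 96 were lower, with depth matching alone 192 were higher, with vector-free nuclei weighted by cluster 32 and 32, and with under 1% mitochondrial UMIs 54 were higher. Of the alternatives added after the data were seen, leaving out the shallow cluster gave 54 higher, the layer clusters 96 matched higher genes, and those without doublet calls 88 lower (111 and 84 matched). The cause was not tested, except that fewer vector-rich nuclei or UMIs entered several of these. Directions reversed on the log2 scale for Flt1, a vascular marker (0.012 at 10 or more vector UMIs, 0.26 with under 1% mitochondrial UMIs, 1.15 with the stricter marker rule), and in the layer clusters, without and with removal of doublet calls, for Rplp1 (-0.024 and -0.048), mt-Atp6 (-0.24 and -0.37) and mt-Nd4 (-0.28 and -0.39); B2m was -0.11 in the latter. Depth limits single clusters: Eef2 rests on 6 to 10 vector-rich UMIs in each layer cluster.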

Other observations

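The 32 vector-rich and 653 vector-free inhibitory nuclei of the wild-type library (median 10007 and 7097 UMIs) took no part in the choice of genes above. Sik3 had 655 CPM against 268 in them, a ratio of 2.45 (2.10 to 2.83), and Tenm2 had 810 against 1596 (0.507, 0.446 to 0.575). Pik3r3 had a ratio of 2.09 (1.51 to 2.85), Nap1l5 of 1.94 (1.55 to 2.39), Ccnd2 of 1.72 (1.12 to 2.55), Sik2 of 1.17 (0.827 to 1.61) and Bach2 of 0.501 (0.359 to 0.681). For other genes a single nucleus held over 20% of the vector-rich UMIs: 25.5% for Usp29 (1.58, 1.32 to 1.88), 22.2% for Gas5 (2.16, 1.48 to 3.06), 46.7% for Nnat (1.90, 1.03 to 3.24), 20.8% for Epha10, 28.6% for Osbpl3 (0.875, 0.643 to 1.17), 38.2% for Brinp3 (1.32, 1.10 to 1.57) and 71.4% for Gm34544 (1.78, 0.690 to 3.89 on 7 UMIs, beside 0.115 in excitatory nuclei). Epha10 had 75.9 CPM against 71.8 (1.06, 0.669 to 1.60), where excitatory nuclei had 2.46. Homer1 was at 0.885 (0.624 to 1.22) and Ptprn at 1.24 (0.984 to 1.55). The difference between the 2 classes of neuron was not tested, and the genes were picked after the excitatory values were seen.

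Because Nnat, Usp29 and Nap1l5 are all imprinted, a list of 49 imprinted genes was drawn up after these values were seen. Of the 20 at 50 CPM or more, 14 were higher in vector-rich excitatory nuclei (60.3% of all genes were), 3 were called higher (2.74% of all genes) and 0 lower, at a median log2 ratio of 0.20. The 3 called genes were those that prompted the list. Peg3, beside Usp29 on chromosome 7, had 372 CPM against 295 (1.26, 1.15 to 1.37), and Blcap, the host gene of Nnat, had 36.9 against 20.9 (1.77, 1.31 to 2.34). Mest had 56.4 against 34.2 (1.65, 1.30 to 2.06). Ube3a, which neurons express from the maternal allele, was at 0.875 (0.839 to 0.911) and Meg3, also maternal, at 1.03.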
